A study of Mus musculus with 2 samples.

Results

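Genes of T cell traffic through lymph nodes were examined in ATAC-seq data, in which a transposase marks accessible DNA, from mouse CD8+ T cells. They were Ccr7, Selplg, S1pr1, S1pr5 and Klf2, 5 of 21887 protein-coding genes on chromosomes 1 to 19, X and Y. The regions described are all peaks that touch a gene's mm10 span with 50 kb added on each side: 95 of 64910 treatment peaks and 108 of 85137 control peaks. The series has 1 library titled treatment and 1 titled control. A second label field reads "Combined treatment" for the library titled treatment and "Treatment" for the library titled control. Neither field says what was given, the genotype field of both holds only the words "global chromatin accessibility", and no label gives strain, age or sex. Below, treatment and control mean the libraries with these titles. With 1 library per group no test was possible, intervals cover counting error only, and every statement compares 2 libraries rather than 2 conditions.

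Naive and central memory T cells enter lymph nodes from the blood, are held there by chemokines, and leave along a gradient of the lipid sphingosine 1-phosphate. CCR7 is the receptor for CCL19 and CCL21 and is needed for entry. PSGL-1, encoded by Selplg, is a mucin-like ligand of selectins that also binds CCL19 and CCL21. S1PR1 reads the lipid gradient and drives exit, and S1PR5 is a second receptor for the same lipid, known from NK cells and circulating effector T cells and silenced in tissue-resident cells. KLF2 is a zinc finger factor of quiescent T cells that activates S1pr1, and FOXO1 lies upstream of Klf2 and Ccr7 in mouse T cells.

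The promoter of Klf2 is printed because the strongest treatment peak of its window, by summit coverage, lies on it in both libraries, and that of S1pr5 because no peak of either library touches it. Each line gives the 250 bases before the RefSeq start in mm10, 5′ to 3′ on the gene's strand, at chr8:72318812-72319061 (plus strand) for Klf2 and chr9:21248444-21248693 (minus strand) for S1pr5. Capitals mark motif matches.
Klf2: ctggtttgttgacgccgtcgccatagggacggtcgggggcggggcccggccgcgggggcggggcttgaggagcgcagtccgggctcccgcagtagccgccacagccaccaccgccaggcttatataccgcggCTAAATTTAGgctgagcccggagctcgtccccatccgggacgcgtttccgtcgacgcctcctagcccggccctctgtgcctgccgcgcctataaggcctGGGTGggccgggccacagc
S1pr5: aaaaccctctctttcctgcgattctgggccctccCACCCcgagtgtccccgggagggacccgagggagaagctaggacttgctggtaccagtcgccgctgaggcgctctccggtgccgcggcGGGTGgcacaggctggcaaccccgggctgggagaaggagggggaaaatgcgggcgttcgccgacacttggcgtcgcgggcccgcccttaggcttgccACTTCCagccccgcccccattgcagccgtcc

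Both promoters are rich in G and C, with 71.2% for Klf2 and 69.2% for S1pr5. Motifs were searched on both strands from 250 bases before to 50 after the start. The KLF letters CACCC occurred once at Klf2 and at 2 places at S1pr5, and 57.5% of 32851 RefSeq promoters hold them. The ETS letters GGAAGT occurred once at S1pr5, from base 220 of the line, and in 23.8% of promoters. Neither promoter held the FOXO letters GTAAACA (3.65% of promoters), the RUNX letters TGTGGT (16.8%), the AP-1 letters TGANTCA (7.81%), the T-box letters AGGTGTGA (1.28%) or the TCF letters CTTTGA (16.003%). The run CTAAATTTAG, a binding sequence of MEF2 factors, which are known to act on the KLF2 promoter, stood 118 bases before the Klf2 start and in 13 of 32851 promoters (0.0396%). It was searched after the sequence had been seen. No matched letters overlapped those of another motif. The peak summits of treatment and control lay 55 and 54 bases before the Klf2 start, at bases 196 and 197 of the line, downstream of that run.

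At each of the 5 genes the treatment list as deposited was the shorter one, and most of the peaks were found in both libraries. With the control list reduced to the length of the treatment list, the numbers were equal at Ccr7, S1pr1 and Klf2, S1pr5 had 2 peaks more in treatment and Selplg 2 fewer. The windows then held 95 peaks in each list, a ratio of 1, which whole lists of equal length have by construction. As deposited, the windows held 95 treatment peaks (exact Poisson interval 76.9 to 116) and 108 control peaks (88.6 to 130.4), a ratio of 0.880 (0.661 to 1.17). The ratio over the windows of all protein-coding genes was 0.785, where a peak in overlapping windows counts once in each. Fewer peaks in treatment is the common state, at 66.7% of all 21887 genes and at 90.6% of the 3449 genes whose windows hold 16 to 24 control peaks, as the windows here do. The number of peaks was 21 in treatment and 23 in control at Ccr7, 19 and 24 at Selplg, 14 and 16 at S1pr1, 22 and 24 at S1pr5, and 19 and 21 at Klf2. The difference was thus 2 peaks at Ccr7, S1pr1, S1pr5 and Klf2 and 5 at Selplg, against a median of 4 fewer among the 3449 genes. Without Selplg the ratio was 0.905.

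**Figure D1:**
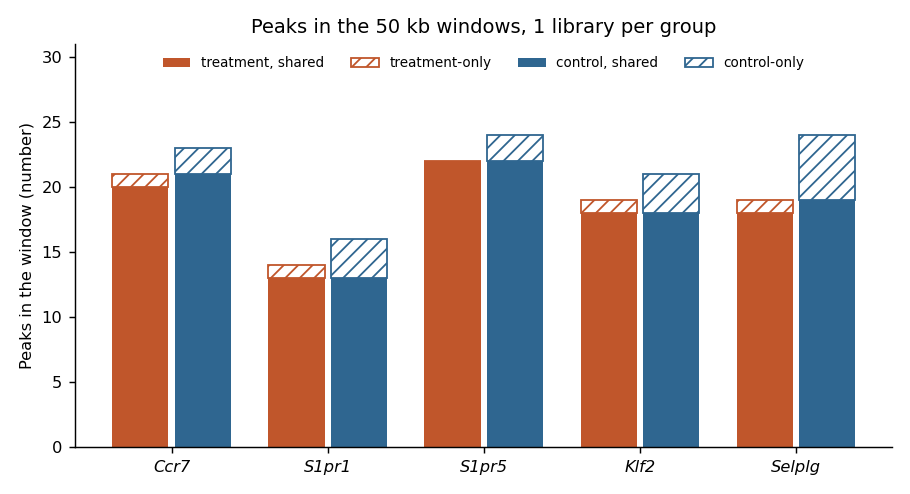
Number of peaks in the window of each gene, for treatment (left bar) and control (right bar), 1 library each. Solid parts are peaks that overlap a peak of the other library, hatched parts are peaks of 1 library only, and control has the taller bar at all 5 genes, by 5 peaks at Selplg.

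Peaks of a single library were few. Of the treatment peaks 4 of 95 had no overlapping control peak, 4.21% (95% Wilson interval 1.65 to 10.3%), beside 6.80% of all treatment peaks. Of the control peaks 15 of 108 had no overlapping treatment peak, 13.9% (8.60 to 21.7%), beside 29.2% of all control peaks. With lists of equal length the control-only share in the windows was 7.37%, which cannot be set beside the 29.2% of the full list. The share over the whole shortened list is not given here. The control peaks of the windows were stronger than most, with a median coverage of 556 reads beside 220 for all control peaks, and control-only peaks over the genome had a median of 86. The part of peak strength in these shares was not tested. The summed peak width was 70.1 kb in treatment and 74.0 kb in control, a ratio of 0.948, where the whole lists gave 0.766. At Ccr7 the treatment peaks covered more, 17.9 kb against 17.1 kb, although they were fewer.

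Summit coverage, the whole number of reads over a peak's highest point, was solved from the authors' fold enrichment and −log10 p-value of each peak. Each control peak was set beside the treatment peak that overlapped it most, which gave 93 shared pairs in the windows and 60242 over the genome. The treatment coverage was lower in 66 pairs, higher in 26 and equal in 1, and over the genome 84.3% of pairs were lower. In bulk samples, fewer cells with an open region and less opening per cell cannot be told apart. With 1 library per group, neither can be told from a difference between the 2 libraries themselves. The median ratio of treatment to control was 0.874, or −0.19 on the log2 scale, beside 0.708 over all pairs. A ratio more than 1.5-fold lower was found in 21 of the 93 pairs and in 43.8% of all pairs. A ratio more than 1.5-fold higher was found in 5 of the 93 and in 2.98% of all pairs. One of those 5, at Selplg, sets summits 803 bp apart beside each other, since 1 wide treatment peak overlaps 2 control peaks there.

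The median ratio was 0.976 at Klf2, 0.943 at Ccr7, 0.921 at S1pr1, 0.859 at S1pr5 and 0.808 at Selplg. A median below 1 was found at 98.2% of the 6370 genes with 10 or more shared pairs, whose own median was 0.720. Of these genes 97.4% had a lower median than Klf2, 96.2% than Ccr7, 94.6% than S1pr1, 88.1% than S1pr5 and 77.5% than Selplg. These genes share pairs with neighbours whose windows overlap, so the percentages describe positions in a list and are no test. Divided by the lowest background of each list, which differed by a factor of 1.063, the medians were 0.918 at Klf2, 0.887 at Ccr7, 0.866 at S1pr1, 0.808 at S1pr5 and 0.760 at Selplg, and the order was the same.

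**Figure D2:**
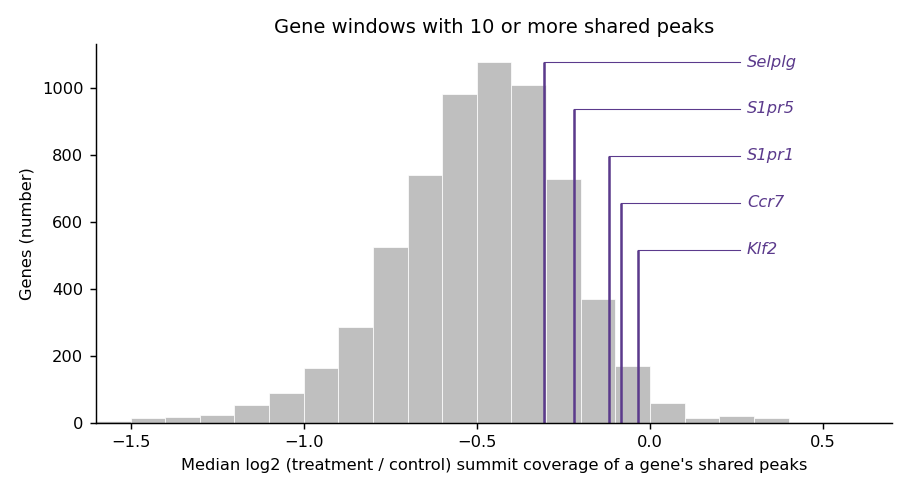
Number of genes (y axis) by the median log2 ratio of treatment to control summit coverage of their shared peaks (x axis), for 6370 genes with 10 or more shared pairs. Lines mark the 5 homing genes, which lie right of the median of 0.720 as ratios, from 0.808 at Selplg to 0.976 at Klf2.

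The pairs were also split by control coverage, which is the denominator of the ratio itself. Among all pairs with a control coverage of 1000 reads or more the median ratio was 0.872, and the 26 pairs of the windows in that class had 0.897. Between 500 and 1000 reads the values were 0.858 for 34 window pairs and 0.696 for all pairs. Between 250 and 500 reads they were 0.784 for 16 window pairs and 0.620 for all, and under 250 reads 0.947 for 17 window pairs and 0.691 for all. The window pairs thus had the higher median in each of the 4 classes, by least in the strongest one. Pairs at gene ends had a median of 0.818 over the genome and other pairs 0.677.

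**Figure D3:**
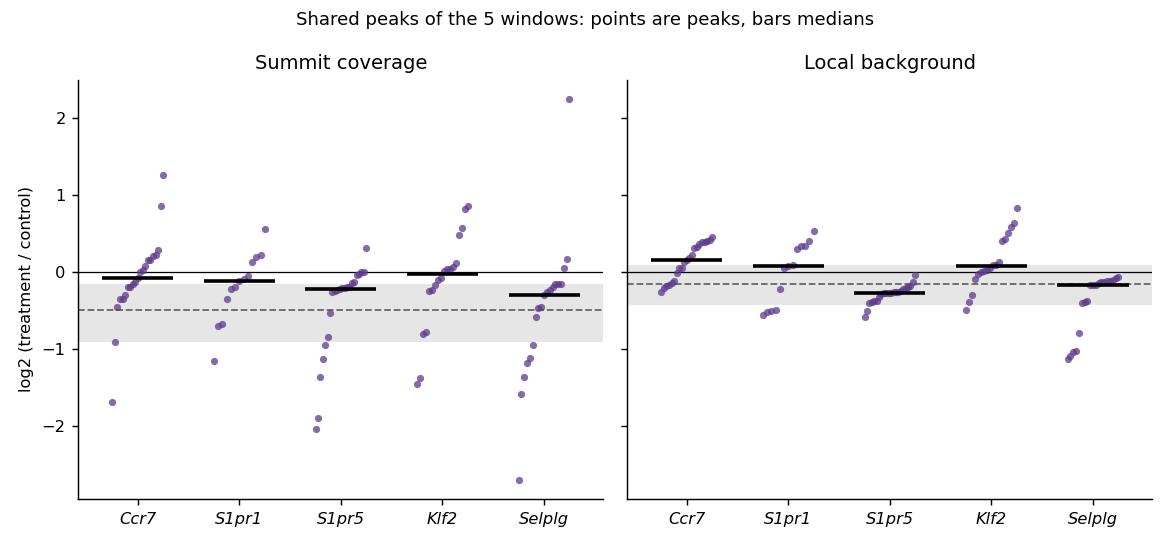
log2 ratio of treatment to control (y axis) for summit coverage (left) and local background (right) at each of the 93 shared pairs, by gene, with the median as a bar. The grey band spans the quartiles of all 60242 pairs and the dashed line their median (0.708 for coverage, 0.896 for background), and the bars of Ccr7, S1pr1 and Klf2 lie above 0 for background and just under 0 for coverage (with each list's lowest background as the unit, the background bars of S1pr1 and Klf2 would lie below 0).

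The local background, the coverage the peak caller expected from the surroundings of a summit, had a median ratio of 1.107 at Ccr7, 1.053 at S1pr1, 1.050 at Klf2, 0.887 at Selplg and 0.829 at S1pr5. It was higher in treatment in 34 of the 93 pairs and in 35.3% of all pairs. Where both backgrounds sit at the lowest value of their list, the ratio is 1.063 and counts as higher. That value was also the third quartile over all pairs and the median of all pairs with control coverage under 250 reads. Both shares thus include pairs with this fixed ratio, and their part was not tested. A median above 1 was found at 11.1% of the 6370 genes, whose median was 0.833. With each list's lowest background as the unit it stayed above 1 at Ccr7 (1.041) and was below 1 at S1pr1 (0.990) and Klf2 (0.988). The authors' fold enrichment is coverage over this background. The coverage was lower in treatment at 8 of 10 shared pairs within the spans of these genes and at 58 of 83 outside them, beside 84.3% of all pairs.

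At Ccr7 (chromosome 11, 99144199 to 99155077) no other protein-coding gene lies in the window. The peak over the higher-coordinate end, at 99153942 to 99155564 in control, had a summit coverage of 1817 reads in treatment and 2035 in control, a ratio of 0.893 (exact interval 0.838 to 0.952). Its summit was at the same base in both libraries, 161 bp outside the span. The fold was 7.56 in treatment and 10.6 in control, with a local background 1.25 times as high in treatment. At the other end the peak just inside the span had 428 reads in treatment and 804 in control, a ratio of 0.532 (0.472 to 0.599), which was the lowest ratio within the span of Ccr7. The next 2 peaks further inside had ratios of 0.914 and 0.870.

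The flanks of Ccr7 held both directions, with 9 of 18 shared pairs outside the span higher in treatment, or 7 with each list's lowest background as the unit. Over the genome 84.3% of all pairs were lower in treatment. On the higher-coordinate side, peaks at 8.14, 11.4 and 16.04 kb from the span had 1174, 985 and 1999 reads in treatment, against 970, 933 and 1737 in control. The last of these was the highest treatment coverage of the window. Further out, a peak 32.0 kb away had 307 reads in treatment and 129 in control, a ratio of 2.38 (1.93 to 2.95), and one 49.1 kb away had 448 and 247, a ratio of 1.81 (1.55 to 2.13). Between them, a peak 43.9 kb away had 46 and 149 reads, a ratio of 0.309 (0.217 to 0.432). The far part of this flank thus held the most extreme ratios of the window in both directions. On the other side the pair 39.0 kb away had 1681 and 1516 reads. The 4 pairs from 7.55 to 20.1 kb were lower in treatment, with ratios of 0.780 to 0.871. The pair with the ratio of 0.780 sets summits 496 bp apart beside each other.

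The highest folds of the Ccr7 window lay outside the gene. In treatment they were 15.03, at 39.0 kb on the lower side, and 14.7, at 25.2 kb on the higher side. In control they were 20.1, at that same peak 25.2 kb away, and 16.8, at 34.4 kb. The 1 treatment-only peak, at 99152253 to 99153045 inside the gene, had 488 reads on a background of 291, a fold of 1.68. The 2 control-only peaks had folds of 2.25 (303 reads, 10.8 kb away) and 2.04 (53 reads, 45.1 kb away). So the single-library peaks of Ccr7 were weak by fold in either list. A treatment peak of 1936 bp, at 99142112 to 99144047, covered the place of 2 control peaks.

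**Figure D4:**
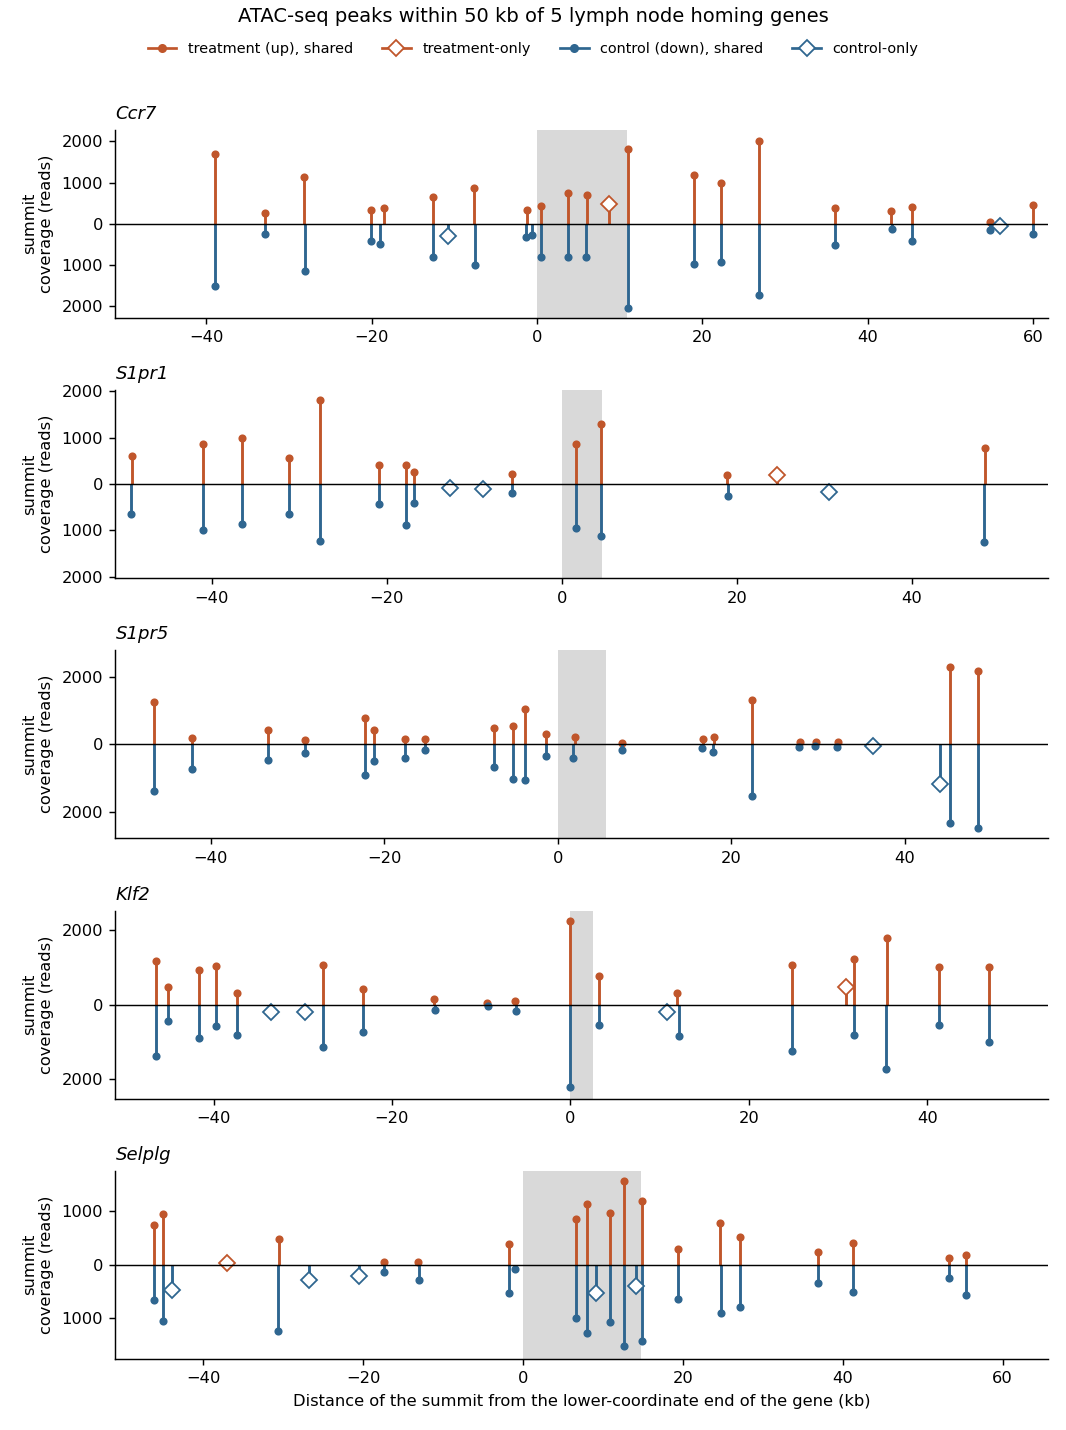
Summit coverage in reads (y axis, treatment upward, control downward) of every peak against the distance of its summit from the lower-coordinate end of the gene (x axis, kb), with the gene's span in grey. Filled points are shared peaks and open diamonds peaks of 1 library, and the tallest treatment lines stand at the start of Klf2 with 2242 reads and, in the S1pr5 window, 39.7 kb from the gene with 2296.

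At Selplg (chromosome 5, 113817798 to 113832528) the gene itself and its surroundings differed. Inside the span 4 shared pairs had 849, 1140, 963 and 1571 reads in treatment and 1005, 1270, 1077 and 1524 in control, ratios of 0.845 to 1.03. The peak over the higher-coordinate end had 1199 reads in treatment and 1434 in control, a ratio of 0.836 (0.774 to 0.903), with the summit at the same base. Outside the span the median ratio of 15 pairs was 0.720, and 13 of them were lower in treatment, beside 84.3% of all pairs over the genome. The ratios inside the span were closer to 1 than the median outside it. The inside pairs all had 1000 reads or more in control, a class with a median of 0.872 over all pairs. Most outside pairs were weaker, and the weaker classes had medians of 0.620 to 0.696 over all pairs. The part of peak strength in this difference was not tested.

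At Selplg 6 of 19 pairs were more than 1.5-fold lower in treatment, beside 43.8% of all pairs over the genome. Of these 6, 3 lay next to each other on the lower-coordinate side and 2 far out on the other side. On the lower-coordinate side, the pair 30.6 kb away had 477 reads in treatment and 1232 in control, a ratio of 0.387 (0.348 to 0.431), and held the highest fold of its window in both lists, 15.1 in treatment and 18.6 in control. The next pairs, 17.4 and 13.0 kb away, had 61 and 43 reads in treatment, against 139 and 280 in control. The ratio of the second, 0.154 (0.109 to 0.212), was the lowest of all 93 pairs. On the other side, pairs 38.5 and 40.7 kb away had ratios of 0.516 and 0.332. The local background had ratios of 0.457 to 0.577 at these 5 pairs. In treatment it was at the lowest value of the list, 15.05 reads, at the pair 13.0 kb away, and 15.5 reads at the pair 17.4 kb away. The sixth pair, 4.66 kb away on the higher side, had 297 reads in treatment and 646 in control, a ratio of 0.460 (0.399 to 0.528), with a background ratio of 0.759. It stood between pairs with ratios of 0.836 and 0.868.

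Of the 5 control-only peaks of Selplg, 2 lay between the pairs 30.6 and 17.4 kb away. The one of highest fold, 8.34 with 205 reads, was 20.5 kb away in the body of Tmem119, a gene known as a marker of microglia. The next by fold, with 5.04 and 478 reads, was 43.9 kb away in the body of Iscu. The remaining 3 had folds of 1.44 to 4.42, and 2 of them lay inside Selplg, with 521 and 403 reads on backgrounds of 311 and 280. The 1 treatment-only peak, 37.0 kb away, had 37 reads and a fold of 2.37. After the pair 30.6 kb away, the highest folds were 11.7 in treatment and 12.9 in control, at 1 shared pair in the body of Coro1c.

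At S1pr1 (chromosome 3, 115710433 to 115715055), the exit receptor, no other protein-coding gene lies in the window and the gene's own peaks were strong in both libraries. The peak over the higher-coordinate end had 1286 reads in treatment and 1125 in control, a ratio of 1.14 (1.05 to 1.24). The peak in the body had 871 and 946, a ratio of 0.921 (0.839 to 1.011). With each list's lowest background as the unit the ratios were 1.075 (0.992 to 1.17) and 0.866 (0.789 to 0.95). The authors' folds were 6.31 and 4.06 in treatment and 6.76 and 5.56 in control, with local backgrounds 1.23 and 1.26 times as high in treatment.

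Around S1pr1, the pair 27.6 kb away on the lower side had the highest treatment coverage of the window, 1811 reads in treatment and 1237 in control, a ratio of 1.46 (1.36 to 1.58), with the same summit base. Closer to the gene, pairs 17.8 and 16.8 kb away had 401 and 257 reads in treatment, against 894 and 419 in control, ratios of 0.449 (0.398 to 0.505) and 0.613 (0.523 to 0.718). The pair 43.6 kb away on the higher side had 787 and 1258, a ratio of 0.626 (0.572 to 0.684). These 3 were the only ones of 13 S1pr1 pairs lower by more than 1.5-fold, beside 43.8% of all pairs, and none was higher by that much. The highest folds lay at the 2 edges of the window, 20.4 and 14.8 in treatment and 22.8 and 16.04 in control.

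A treatment-only and a control-only peak of like strength stood side by side beyond the higher-coordinate end of S1pr1. The treatment-only peak, at 115734840 to 115735126, was 19.98 kb from the gene with 185 reads and a fold of 11.6. The control-only peak, at 115740852 to 115741161, was 25.9 kb away with 180 reads and a fold of 11.9. Each was far above the median fold of its kind, 2.74 for all treatment-only and 4.42 for all control-only peaks. Both sat on the lowest background of their list, 15.05 reads in treatment and 14.2 in control. The median coverage was 51 reads for all treatment-only and 86 for all control-only peaks. The other 2 control-only peaks, 9.03 and 12.8 kb away on the lower side, had folds of 3.52 and 1.83.

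At S1pr5 (chromosome 9, 21242917 to 21248443) no peak of either library lay within 1 kb of the start or of the other end, whereas 61.2% of all genes had a gene-end peak in both libraries. The peaks nearest to the start were lower in treatment. The one 1.83 kb upstream of the start had 47 reads in treatment and 176 in control, a ratio of 0.267 (0.189 to 0.370), and folds of 2.99 in treatment and 8.56 in control. The one inside the gene had 218 reads in treatment and 392 in control, a ratio of 0.556 (0.469 to 0.658), and folds of 6.999 and 8.48. The local background had ratios of 0.765 at the upstream pair and 0.668 at the inside pair. At the upstream pair the treatment background was the lowest of its list, 15.05 reads. Of the 22 shared pairs 20 were lower in treatment, 1 higher and 1 equal, where 84.3% of all pairs over the genome were lower.

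The other peaks of the S1pr5 window lie among 6 further genes, and 7 of the 22 treatment and 8 of the 24 control peaks were at an end of one of them. Of the 22 shared pairs 6 were more than 1.5-fold lower in treatment, beside 43.8% of all pairs over the genome. Among these 6 was one 42.2 kb away on the lower side, with 175 reads in treatment and 721 in control, a ratio of 0.243 (0.205 to 0.287). Another, 17.6 kb away, had 153 and 394 reads, a ratio of 0.388 (0.320 to 0.469). The highest folds were 18.8 in treatment and 19.1 in control at an end of Atg4d, and 17.0 and 14.4 in the body of Pde4a. No peak was treatment-only, which allows a share of up to 14.9% (upper Wilson limit of 0 of 22). The 2 control-only peaks lay in Kri1, one with 1167 reads on a background of 362, a fold of 3.22, and one with 53 reads and a fold of 1.89.

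At Klf2 (chromosome 8, 72319062 to 72321654), the transcription factor of the group, the start peak was the strongest treatment peak of the window by coverage. It had 2242 reads in treatment and 2198 in control, a ratio of 1.02 (0.961 to 1.08) as deposited and 0.959 with each list's lowest background as the unit. Its width was 2282 bp in treatment and 2021 bp in control, which takes in the promoter printed above and part of the gene. The fold was 8.14 in treatment and 11.9 in control, and the local background was 274 and 183 reads, a ratio of 1.497. The peak past the other end of the gene had 772 reads in treatment and 555 in control, a ratio of 1.39 (1.25 to 1.55).

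Upstream of Klf2 the pairs were mixed. The pair 39.8 kb upstream had 1017 reads in treatment and 579 in control, a ratio of 1.76 (1.59 to 1.95), and its neighbour 37.3 kb upstream had 308 and 804, a ratio of 0.383 (0.335 to 0.437). Both had nearly the same local background in the 2 libraries, with ratios of 1.09 and 1.02. Pairs 23.2 and 6.12 kb upstream had ratios of 0.573 and 0.583. Neighbouring peaks thus went opposite ways at this locus. The highest treatment fold, 15.5, was at a pair 27.8 kb upstream with 1049 reads in treatment and 1126 in control.

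Downstream of Klf2, a pair 9.64 kb past the gene had 308 reads in treatment and 846 in control, a ratio of 0.364 (0.319 to 0.415), with summits 324 bp apart. Further out lies Eps15l1, an endocytic adaptor gene, in whose body all remaining downstream pairs fall. There 4 of 5 pairs were higher in treatment, with ratios of 1.005 to 1.81, whereas 84.3% of all pairs over the genome were lower. Of these 4 ratios, 2 were below 1 with each list's lowest background as the unit. The pair 38.8 kb away had 993 and 550 reads, a ratio of 1.81 (1.63 to 2.01), with a local background 1.78 times as high in treatment. A local background more than 1.5-fold higher was found at 2 Klf2 pairs, at no pair of the other 4 genes and in 1.07% of all pairs. The second highest treatment fold, 15.04, and the highest control fold, 17.7, were at 1 shared pair in Eps15l1, and the next control fold was 15.3. The treatment-only peak, with 480 reads and a fold of 1.602, also lay in Eps15l1. The 3 control-only peaks had 195 to 208 reads and folds of 2.73 to 3.40.

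The shared peaks mostly kept their position. The median distance between the summits of a pair was 7 bp, and 5 bp over all pairs. The summit was at the same base in 33 of 93 pairs and in 29.5% of all pairs. The distance was at most 50 bp in 76 of 93 pairs and in 80.9% of all pairs. The median ratio of widths was 0.978, beside 0.912 over all pairs.

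Other genes of lymph node entry and exit were counted in the same way from a list of 39, all found in the annotation. Fewer peaks in treatment were found at 33, more at 2 and as many at 4, with a median difference of −3 and sums of 514 treatment and 639 control peaks, a ratio of 0.804. Among all genes 66.7% had fewer, as did 90.6% of those with 16 to 24 control peaks, and the ratio over all windows was 0.785. Some windows overlap, so a peak can count more than once in either ratio. More peaks were found at Klf3, a relative of Klf2, with 15 in treatment and 13 in control, and at Itga4, the integrin alpha 4 chain, with 12 and 11. Foxo1 had 22 and 23 peaks, and Cd69, whose product removes S1PR1 from the cell surface, had 20 and 23.

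The differences of 7 peaks or more were at 6 listed genes, all with fewer in treatment. Spns2, a transporter that releases sphingosine 1-phosphate from endothelial cells, was at 10 in treatment and 20 in control. Tpst2, which sulphates tyrosines as on PSGL-1, had 21 and 30, and Sphk2, a kinase that makes the lipid, had 10 and 18. St3gal4, a sialyltransferase for selectin ligands, had 8 and 16, and Fut4, a fucosyltransferase, had 9 and 16. Gpr183, an oxysterol receptor, had 22 and 29. At other genes of the same kinds the differences were smaller, with 6 and 9 peaks at Sphk1, 10 and 12 at Fut7, and 7 in each library at Sgpp1, a phosphatase of the lipid. The other sphingosine 1-phosphate receptors had 11 and 14 peaks at S1pr2, 6 and 11 at S1pr3, and 21 and 26 at S1pr4. By the 4 counts of treatment, control, treatment-only and control-only peaks over the 2 libraries, the listed genes nearest to Ccr7 were Itgal and Podxl2, both at a Euclidean distance of 2.65. Nearest to Selplg were Cd69 (1.41) and B4galt1 (1.73), to S1pr1 Grk2 (1.41) and Zbtb7b (3.16), to S1pr5 Itgal (3.46) and Foxo1 (3.74), and to Klf2 Podxl2 (1.41) and Itgal (2).

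**Figure D5:**
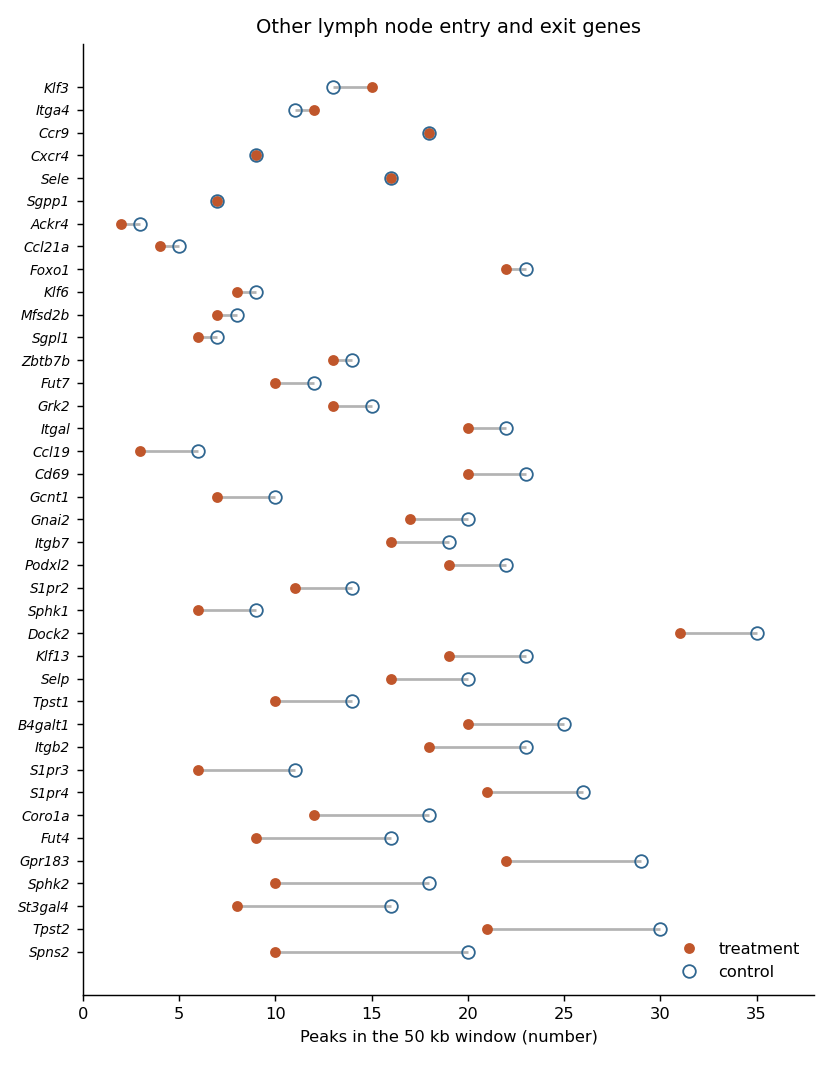
Number of peaks in the 50 kb window (x axis) in treatment (filled) and control (open) for 39 other entry and exit genes, ordered by the difference. Points coincide at Ccr9, Cxcr4, Sele and Sgpp1, treatment is higher at Klf3 and Itga4, and the gap is widest at Spns2 with 10 and 20 peaks.

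The cell type was checked by peaks within 1 kb of a start or gene end. Each of 8 T cell and CD8 genes had one in either library, including Cd8a with folds of 6.82 in treatment and 9.42 in control. None of 3 NK and 3 endothelial genes had one, 1 of 5 B cell genes (Cd79b) and 1 of 3 CD4 T cell genes (Cd4) did in both, and so did 1 of 3 stromal genes (Col1a1). Of 4 myeloid genes, 2 had a peak in treatment and 4 in control, with Itgam at folds of 11.8 and 17.6 and Lyz2 at 6.26 in control only. Their part in the results above was not tested. The lowest background was 15.05 reads in treatment and 14.2 in control, and the narrowest peak 186 and 176 bp, a ratio per base of 1.006. Without read totals, whether this ratio reflects the depth of the libraries was not tested.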

How the data were processed

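ATAC-seq peak lists of 2 libraries were used, 1 per group, grouped by their titles. Per the submitters' processing notes the tools were cutadapt 2.5, Bowtie2 2.3, Picard 2.20 and MACS2 on mm10. No settings or read totals are stated there. Each deposited peak carries the authors' score, the fold enrichment as a ratio, a −log10 p-value and a −log10 q-value, the lowest of which was 2.00 in each list. These are the authors' own values, and folds of different lists are set side by side without reading a change from them.

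From the deposited values a whole-number summit coverage was solved to within 0.001 in −log10 p, for 99.98% of treatment and 99.99% of control peaks. Overlap by 1 bp made a peak shared. Gene spans and starts came from RefSeq tables of GRCm38.p6, the assembly of mm10. Starts were used for S1pr5 and Klf2, and both span ends for Ccr7, S1pr1 and Selplg. Code was tested on simulated peaks and run with Python 3.11.15, pandas 2.3.3 and scipy 1.17.1. Named peaks were those at starts, the 2 highest folds per list and window, all treatment-only and the 2 highest control-only peaks. Other named peaks, the coverage classes and the gene ranks were chosen after their values were seen. The genes and lists were chosen with earlier results of these data known. Of the list of other entry and exit genes, 1 gene is not reported here.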

Additional observations from a re-analysis of the deposited data

How the results depend on the processing

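No paired analysis was possible because each group had 1 library, and for the same reason no library could be left out. With the control list reduced to the length of the treatment list, the control-only share was 7.37% (7 of 95 peaks), the windows held as many peaks in both lists (a ratio of 1), and S1pr5 had 2 peaks more in treatment. Whole lists of equal length have a ratio of 1 by construction, and the control-only share of the whole shortened list is not given here. With that list Ccr7, S1pr1 and Klf2 had equal numbers, as Ccr7 and S1pr5 did with 10 kb on each side. The other alternatives were 10 and 100 kb windows, −log10 q of at least 5 or 10, 50% reciprocal overlap, summits within 150 bp and, added later, scaled coverage. Over all of them the ratio of peaks ran from 0.819 to 1, the treatment-only share from 3.23 to 8.42%, the control-only share from 7.37 to 19.8%, the median coverage ratio from 0.822 to 0.889, and the genes with a start or gene-end peak in both libraries from 4 to 5. Where counts changed, the cause was not tested. Read totals were not used, so small ratios rest on the recovered coverage.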

Other observations

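Promoters of neighbouring genes supplied the 2 highest coverages of the S1pr5 window. The peak at the shared ends of Kri1 and Cdkn2d, which encodes an inhibitor of cyclin-dependent kinases, had 2296 reads in treatment and 2337 in control, a ratio of 0.982. The next peak at Cdkn2d had 2170 and 2482, a ratio of 0.874. The peak at an end of Keap1, a sensor of oxidative stress, had 1050 and 1053, a ratio of 0.997. Other neighbour pairs were lower in treatment, with 119 and 260 reads at an end of Pde4a, a ratio of 0.458, and with ratios of 0.516 and 0.690 at pairs in the body of Keap1.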
